A study of Mus musculus with 2 samples.

Results

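The guanylate-binding protein (Gbp) genes of the mouse were examined in M1-like bone marrow derived macrophages (BMDMs) from WT and FRβ KO mice. The 10 genes *Gbp2*, *Gbp2b*, *Gbp3*, *Gbp4*, *Gbp5*, *Gbp6*, *Gbp7*, *Gbp8*, *Gbp9* and *Gbp10* were taken by symbol, through GENCODE M21 on mm10, from the 54532 gene identifiers of the count table. All 10 passed the filter of 10 counts, summed over the libraries, that 14489 genes passed. *Gbp2*, *Gbp2b*, *Gbp3*, *Gbp5* and *Gbp7* lie in a cluster on chromosome 3, and *Gbp4*, *Gbp6*, *Gbp8*, *Gbp9* and *Gbp10* in a cluster on chromosome 5.

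Both groups were male mice on C57BL/6, and the methods give an age for the WT mice at purchase but none for the time the marrow was taken. WT mice were bought and FRβ KO mice were bred at the university, so that genotype and source cannot be told apart. The FRβ KO mice are homozygous for an insertion in *Folr2*, the gene of folate receptor β, and the WT mice carry no insertion. The insertion was made on the SWV strain and then crossed to C57BL/6. The number of these crosses is not given, so any SWV DNA left in FRβ KO mice cannot be told apart from the insertion. Marrow cells of both genotypes were grown for 7 days in regular RPMI with serum and M-CSF (20 ng/mL), which gives M0 macrophages. IFNγ (20 ng/mL) together with LPS (1 ng/mL) for the last 24 hours then turned them into M1-like macrophages. Total RNA of 3 mice was pooled per genotype and sequenced as 1 library, so the spread between mice is unknown and no p-value can be given. Every interval below is a 95% interval that covers counting error only. It may be too narrow even for that, because reads without molecular identifiers are not independent molecules.

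GBPs are large GTPases of the dynamin superfamily and are among the proteins that interferon induces most strongly. In macrophages, IFNγ binds its receptor, JAK kinases are activated, and transcription factors such as IRF1 then switch on the Gbp genes. The proteins then assemble on the vacuoles of intracellular parasites and bacteria and on free bacteria, and help to open these membranes and to set off inflammasomes. Some GBPs end in a CaaX box, a cysteine followed by 3 residues, to which a prenyl lipid is attached that anchors the protein in membranes.

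Library depth was 18871271 counts in WT, with 18945 genes detected, and 19742619 counts in FRβ KO, with 19090. After TMM scaling the FRβ KO library was 1.07 times the size of the WT library. With 0 counts of *Folr2* in WT against 2 in FRβ KO, the disrupted gene gave no check of the genotype labels. The macrophage genes *Adgre1* (6640 and 7112 counts in WT and FRβ KO) and *Csf1r* (27506 and 30125) and the M1 gene *Nos2* (58376 and 59486) were abundant in both libraries. Other markers of these lists differed in both directions, from *Il12b* (ratio 1.96) and *Cd14* (1.74) to *Fcgr1* (0.786) and *Cxcl9* (0.695), and their part in the Gbp results was not tested. Of 34 markers of 9 other cell types, 14 were at 0 in both libraries, among them *Cd3d*, *Ms4a1*, *Ncr1* and *Hbb-bs*. Summed over these 34 markers, the level was 73.7 CPM (counts per 1000000 scaled counts) for the WT library and 52.8 CPM for FRβ KO. The interval of their KO/WT ratio lay below 1 for 3 and above 1 for 0 of the 13 with at least 10 counts (16.8% and 14.7% over all tested genes), and the part of these cells in the results was not tested. Most of the summed difference was *S100a8*, listed as a neutrophil gene (652 and 407 counts, 35.0 and 20.4 CPM). The rest of the neutrophil list had few counts: *S100a9* 7 and 6, *Mpo* 8 and 3, *Ly6g* 0 and 3, *Elane* 1 and 0. *S100a8* alone therefore does not show that neutrophils were present. Fewer cells of a type and less RNA per cell cannot be told apart in such bulk samples.

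The DNA before the start sites of the chromosome 3 genes holds the kind of elements through which interferon acts. RefSeq promoter windows on GRCm38.p6 (mm10), from 250 bases before to 50 after the start, matched these 5 of the 10 genes. The windows are shown for *Gbp2*, the most abundant member, for *Gbp2b*, the member with the lowest ratio between the libraries, and for *Gbp7*, the chromosome 3 member without a lower count ratio. Capitals mark matches to the core of the interferon-stimulated response element (ISRE, which reads GAAA, any 2 bases, GAAA, or on the other strand TTTC, any 2 bases, TTTC) and to the gamma-activated site (GAS; TTCNNNGAA, the same on both strands). The windows lie on the plus strand at chr3:142620413-142620712 (*Gbp2*), chr3:142594597-142594896 (*Gbp2b*) and chr3:142530086-142530385 (*Gbp7*).
Gbp2: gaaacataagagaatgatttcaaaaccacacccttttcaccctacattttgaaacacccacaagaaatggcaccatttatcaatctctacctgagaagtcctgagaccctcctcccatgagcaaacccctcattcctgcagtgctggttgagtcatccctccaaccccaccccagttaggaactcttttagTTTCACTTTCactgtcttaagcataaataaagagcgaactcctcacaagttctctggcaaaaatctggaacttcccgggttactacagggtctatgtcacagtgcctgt
Gbp2b: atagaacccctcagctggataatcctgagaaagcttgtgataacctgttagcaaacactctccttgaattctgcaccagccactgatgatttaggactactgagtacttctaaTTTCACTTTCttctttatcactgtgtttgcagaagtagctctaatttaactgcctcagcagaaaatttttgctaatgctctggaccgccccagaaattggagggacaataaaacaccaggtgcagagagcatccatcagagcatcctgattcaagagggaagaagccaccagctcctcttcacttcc
Gbp7: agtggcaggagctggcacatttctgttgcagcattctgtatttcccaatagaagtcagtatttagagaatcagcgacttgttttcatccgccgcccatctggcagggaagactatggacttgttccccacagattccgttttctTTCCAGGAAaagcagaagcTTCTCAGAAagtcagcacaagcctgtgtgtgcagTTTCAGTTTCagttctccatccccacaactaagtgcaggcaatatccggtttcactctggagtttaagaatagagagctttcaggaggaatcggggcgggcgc
The ISRE core stood 59 bases before the start site of *Gbp2*, 137 before that of *Gbp2b* and 53 before that of *Gbp7*, in each case read on the opposite strand. *Gbp2* and *Gbp2b* had the same 10 letters there. *Gbp5*, with a match 165 bases before its start, and *Gbp3*, with overlapping matches at 45 and 39 bases, also held it, while another annotated start of *Gbp3* had no match in its window. A GAS match was present in the windows of *Gbp7* (106 and 87 bases before the start) and *Gbp5* (245 and 52 bases) and in none of the other 3 genes. Of all 32851 RefSeq windows of this length, 3.44% held the ISRE core, 8.30% the GAS motif and 0.454% both. These are matches of letters and not measured binding, and promoter windows of the chromosome 5 members were not used here.

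The ends of the coding sequences separate the same family in another way. Below are the last 5 codons and the stop codon of the GENCODE M21 transcripts that match RefSeq, shown for the 3 genes with a cysteine codon at the CaaX position and for the *Gbp6* and *Gbp10* pair, with that cysteine codon in capitals.
Gbp2: aagTGCactatactctga
Gbp2b: tcaTGCaccatactttaa
Gbp5: gacTGTgttataagctaa
Gbp6: tatctaaagcatttatga
Gbp10: tatctaaagcatttatga
A cysteine codon 4 codons before the stop was found in *Gbp2*, *Gbp2b* and *Gbp5*, all on chromosome 3, and in none of the other 7 members. *Gbp5* has 2 annotated coding ends, and whether the one not shown holds this codon is not reported here. *Gbp6* and *Gbp10* ended in the same 18 bases. These 2 coding sequences, of 611 codons each, were identical at 98.4% of aligned bases.

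All 10 Gbp genes were transcribed in both libraries, and they made up 1.32% of all counts in WT and 1.17% in FRβ KO. *Gbp2* gave the most counts (WT 161942, FRβ KO 147806), which were 65.1% and 63.9% of the counts of the 10 genes. By CPM it was the 5th most abundant of all genes in WT and the 6th in FRβ KO. *Gbp10* was at the other end with 603 and 546 counts. Every member was far above the floor of 3 counts that a count of 0 would allow (0.161 CPM for WT and 0.150 for FRβ KO).

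Levels were compared between genes as CPM per kilobase of annotated exons. In WT, *Gbp2* stood at 3454 CPM/kb, 14.3-fold (14.1 to 14.6) above *Gbp3* at 241. *Gbp4* (216), *Gbp5* (145), *Gbp8* (92.3) and *Gbp7* (84.6 CPM/kb) followed. The lower end of the family was formed by *Gbp2b* (50.7), *Gbp9* (34.6), *Gbp6* (22.7) and *Gbp10* (8.35 CPM/kb). Each WT neighbour in this order differed from the next beyond counting error. The low places of *Gbp6* and *Gbp10* are uncertain, because the annotated gene *Gm43302* overlaps 29.0% and 46.3% of their exon bases on the same strand. How reads in such overlaps were counted is unknown. In FRβ KO the order was the same except that *Gbp9* (35.0 CPM/kb) stood above *Gbp2b* (28.4). *Gbp8* (86.9) and *Gbp7* (86.4 CPM/kb) could not be told apart in FRβ KO, with a ratio of 1.01 (0.974 to 1.04). With the longest transcript as the length instead, 8 of the 10 genes kept their place in WT and 6 in FRβ KO, so some positions in the order depend on the length used. Both chromosomes held high and low members, as the plot of levels shows.

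**Figure D1:**
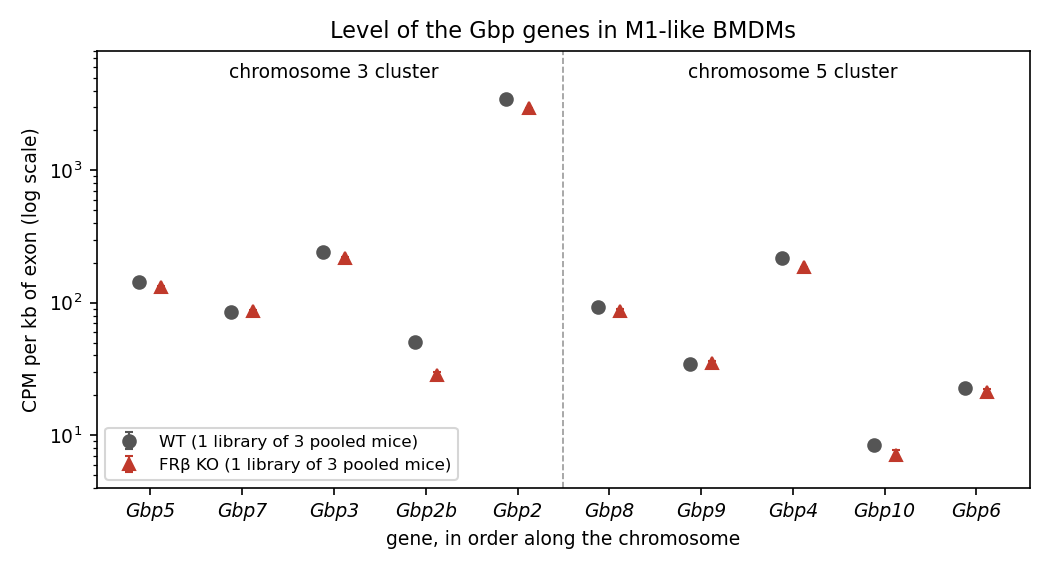
Levels of the 10 Gbp genes in the WT and the FRβ KO library, as CPM per kilobase of annotated exons on a log axis, with genes grouped by chromosome and 1 point per library and 95% counting intervals as bars. *Gbp2* was far above every other member (3454 in WT and 2939 in FRβ KO), and *Gbp10* was the lowest (8.35 and 7.05). The levels of *Gbp6* and *Gbp10* are uncertain because another annotated gene overlaps their exons.

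The Gbp family as a whole was lower in FRβ KO by a small amount, and 1 member, *Gbp2b*, was lower by a large one. Summed counts of the 10 genes were 248572 for WT and 231319 for FRβ KO, a KO/WT ratio of 0.868 (0.863 to 0.872) after scaling. The interval lay wholly below 1 for 8 of the 10 genes, held 1 for *Gbp7* and *Gbp9*, and lay above 1 for 0. Among all 14489 tested genes, 16.8% had an interval below 1 and 14.7% above 1. Genes with many counts have narrow intervals, so the shares were also taken over the 5846 genes whose counts reached 1000 in sum, all 10 members among them, and were 23.8% below and 21.3% above. With libraries scaled by total counts, 6 members lay below 1 and 1 above (*Gbp7*), and of all tested genes 13.2% lay below and 19.4% above. The median log2 KO/WT ratio of the members was -0.13, against -0.01 over all tested genes, whose middle 50% ran from -0.17 to 0.15. Of the members, 6 lay inside that middle range and 4 (*Gbp2*, *Gbp2b*, *Gbp4* and *Gbp10*) below it. Over the 5846 genes with at least 1000 counts the middle 50% was narrower, from -0.097 to 0.089. *Gbp3* (-0.137), *Gbp5* (-0.127) and the median of the members also lay below that narrower range, and *Gbp6*, *Gbp7*, *Gbp8* and *Gbp9* lay inside it. No member passed 2-fold with its whole interval, which 0.407% of all tested genes did downwards and 0.311% upwards (0.171% and 0.0171% of those with at least 1000 counts).

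Of the chromosome 3 genes, *Gbp2b* stood farthest from 1. *Gbp2b*, long known as *Gbp1* in the mouse and a CaaX member (ENSMUSG00000040264), spans 142594847 to 142619179 on the plus strand. Its counts were 2668 (143 CPM) in the WT library and 1603 (80.2 CPM) in the FRβ KO library. The KO/WT ratio was 0.560 (0.526 to 0.596), which is 1.79-fold lower in FRβ KO. Of the 5846 genes with at least 1000 counts, 18 (0.308%) had a ratio this low or lower, *Gbp2b* included, and 5.38% of all tested genes did. Its share of the family counts was 1.07% in WT and 0.693% in FRβ KO. The next lowest member, *Gbp10*, had a ratio 1.51 times (1.32 to 1.72) that of *Gbp2b*, so the gap between *Gbp2b* and the rest of the family exceeded counting error.

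*Gbp2* (ENSMUSG00000028270, 142620602 to 142638008, plus strand), directly downstream of *Gbp2b*, encodes a GTPase that accumulates on the vacuole of *Toxoplasma* and helps to control this parasite. Its level was 8689 CPM for WT against 7394 for FRβ KO, a ratio of 0.851 (0.845 to 0.857). The difference of 1296 CPM was 73.4% of the 1766 CPM by which the whole family was lower in FRβ KO. The sum over the family is therefore mainly a statement about *Gbp2*. With *Gbp2*, *Gbp2b* and *Gbp4* left out, the other 7 genes had a summed ratio of 0.940 (0.929 to 0.952).

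*Gbp5* (ENSMUSG00000105504, 142493978 to 142522344) encodes a protein that promotes NLRP3 inflammasome assembly and is the third CaaX member. It had 17879 and 17559 counts (959 and 878 CPM), with a ratio of 0.916 (0.897 to 0.935). *Gbp3* (ENSMUSG00000028268, 142560026 to 142573209) had 14645 and 14285 counts (786 and 715 CPM) and almost the same ratio, 0.909 (0.889 to 0.931). Both genes were lower in FRβ KO by less than *Gbp2*. *Gbp7* (ENSMUSG00000040253, 142530342 to 142550149), whose protein takes part in delivering NADPH oxidase and autophagy components to bacterial vacuoles, had 8856 and 9693 counts (475 and 485 CPM). Its ratio of 1.02 (0.991 to 1.05) held 1, so that the genes on either side of *Gbp7* were lower in FRβ KO and *Gbp7* was not detectably so at this depth.

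The chromosome 5 genes had ratios between 0.844 and 1.01, a range close to that of the chromosome 3 genes without *Gbp2b* (0.851 to 1.02). *Gbp4* (ENSMUSG00000079363, 105115767 to 105139586, minus strand), whose product has been described as an inhibitor of IRF7 activation, carried most of the counts of that cluster. Its counts were 30201 and 27691 (1620 and 1385 CPM), a ratio of 0.855 (0.841 to 0.869). This ratio could not be told apart from that of *Gbp2* on chromosome 3 (ratio of ratios 1.00, 0.987 to 1.02). *Gbp10* (ENSMUSG00000105096, 105215699 to 105239533), 1 of the members implicated in defence against mycobacteria and *Listeria*, had 603 and 546 counts (32.4 and 27.3 CPM). Its ratio was 0.844 (0.750 to 0.949), the widest interval of the family.

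*Gbp6* (ENSMUSG00000104713, 105270702 to 105293698), implicated in the same defence, had 2521 and 2535 counts (135 and 127 CPM), with a ratio of 0.937 (0.887 to 0.991). *Gbp8* (ENSMUSG00000034438, 105014150 to 105139540) had 5920 and 5979 counts (318 and 299 CPM) and a ratio of 0.942 (0.908 to 0.976). For both genes the raw counts were slightly higher in FRβ KO, and the lower ratio came from the scaling of the libraries. With libraries scaled by total counts the intervals of *Gbp6* (0.961, 0.909 to 1.02) and *Gbp8* (0.965, 0.931 to 1.00) held 1. *Gbp9* (ENSMUSG00000029298, 105077630 to 105139539) had 3337 and 3622 counts (179 and 181 CPM). Its ratio of 1.01 (0.965 to 1.06) made it, with *Gbp7*, 1 of the 2 members without a lower level in FRβ KO. The plot of ratios shows these 10 values, and the plot against all genes shows where they fall among them.

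**Figure D2:**
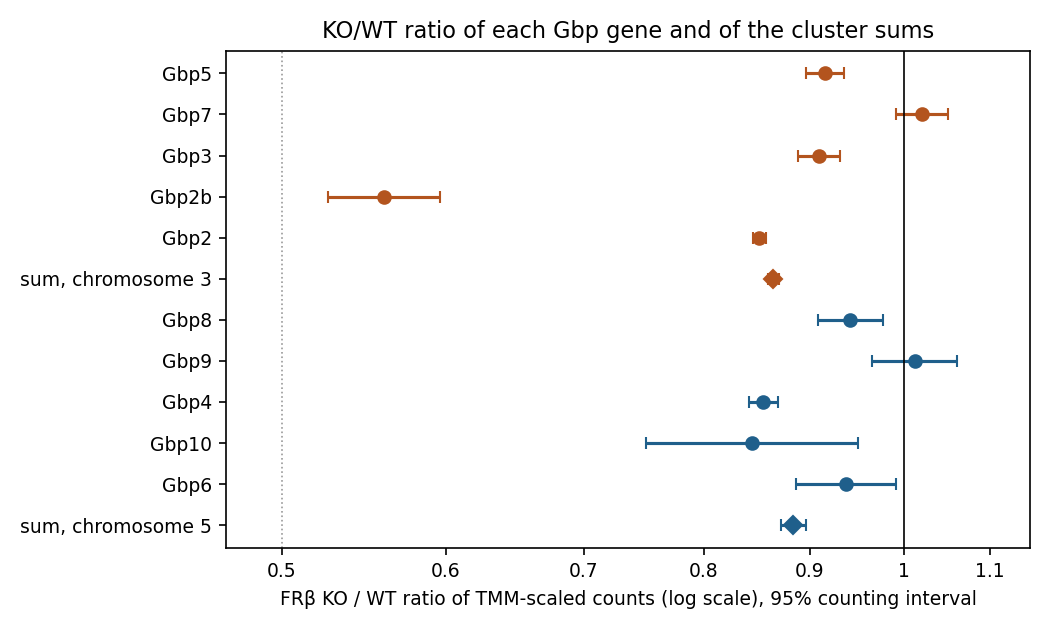
KO/WT ratio of scaled counts for the 10 Gbp genes and for the sums of the chromosome 3 and chromosome 5 clusters, with exact 95% counting intervals as bars on a log axis. *Gbp2b* (0.560) stands alone at the low end, *Gbp7* (1.02) and *Gbp9* (1.01) hold 1, and the other 7 genes lie between 0.844 and 0.942.

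**Figure D3:**
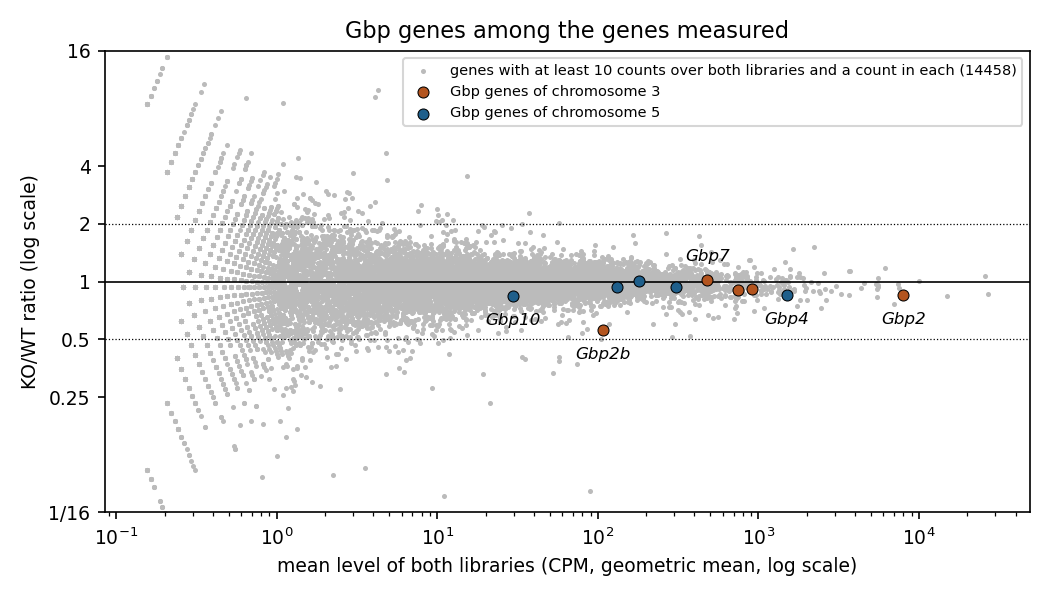
KO/WT ratio of each gene with at least 10 counts and a count in each library (14458 points, 15 of them outside the plotted range), against its geometric mean CPM, on log axes, with the Gbp genes coloured by chromosome and dotted lines at 2-fold. *Gbp2b* (0.560) lies at the lower edge of genes of its level, and the other 9 members lie between 0.844 and 1.02.

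The clusters of chromosome 3 and chromosome 5 were then compared. The 5 chromosome 3 genes, all on the plus strand within 144 kb (142493978 to 142638008), had summed counts of 205990 for WT and 190946 for FRβ KO, a ratio of 0.864 (0.859 to 0.870). The 5 chromosome 5 genes, all on the minus strand within 280 kb (105014150 to 105293698), summed to 42582 and 40373 counts, a ratio of 0.884 (0.872 to 0.896). In each cluster 4 of 5 genes had an interval below 1 and 1 held 1. The ratio of the chromosome 5 sum to the chromosome 3 sum was 1.02 times (1.01 to 1.04) as high in FRβ KO as in WT, a quantity that does not depend on how the libraries are scaled. This small difference had no stable direction. Without *Gbp2* it became 0.968 (0.950 to 0.987), because the chromosome 3 ratio then moved to 0.913 (0.901 to 0.925), and without *Gbp8* (1.01, 0.996 to 1.03) or *Gbp9* (1.01, 0.995 to 1.03) its interval held 1. Without *Gbp4* it was 1.11 (1.08 to 1.13), with the chromosome 5 sum at 0.955 (0.932 to 0.979). The most abundant gene of each cluster, *Gbp2* and *Gbp4*, thus set the sums, and genes within a cluster differed more from each other than the cluster sums did.

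Location and coding sequence did not divide the family in the same way. Within the chromosome 5 cluster all coding sequences were close to each other, with 89.0% to 98.4% of aligned bases identical. Within the chromosome 3 cluster identity ran from 56.5% to 82.5%, the highest being *Gbp2* with *Gbp2b*, which had quite different ratios (0.851 and 0.560). *Gbp3* and *Gbp7* were closer to the chromosome 5 genes (70.2% to 74.3%) than to *Gbp2*, *Gbp2b* and *Gbp5* next to them (56.5% to 59.8%). In sets chosen after these sequences were seen, *Gbp2*, *Gbp2b* and *Gbp5*, the CaaX members, had a summed ratio of 0.853 (0.847 to 0.859), and *Gbp3* and *Gbp7* one of 0.951 (0.934 to 0.969). The first of these sums is again mostly *Gbp2*.

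Likeness also limits how well reads can be given to a gene. Of all windows of 150 bases, the length of a read, 66.6% in *Gbp10* and 59.1% in *Gbp6* were also present in the other gene or in *Gm43302*, an annotated protein-coding gene that overlaps both and had 1 and 6 counts. The separate values of *Gbp6* and *Gbp10* are therefore uncertain. Summed, their counts were 3124 and 3081 in the same order, a ratio of 0.919 (0.875 to 0.967). *Gbp7* shared 8.77% of its windows with the gene model *Gm43802*, which had 0 counts in both libraries, and *Gbp4* shared 0.0254% with *Gbp11*. *Gbp2*, *Gbp2b*, *Gbp3*, *Gbp5*, *Gbp8* and *Gbp9* shared no window, so an exact copy elsewhere in the annotated transcripts does not affect *Gbp2b*. *Gbp4*, *Gbp8* and *Gbp9* overlap each other on the same strand in 60 to 61 bases of exon, 1.77% of the exons of *Gbp8* at most. Summed with every transcript at 95% identity over at least 150 bp, which adds *Gbp4* to *Gbp9*, the ratio of *Gbp9* was 0.870 (0.857 to 0.884), a value made mainly of *Gbp4* counts.

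Other annotated Gbp loci were also in the table. *Gbp11*, annotated as a polymorphic pseudogene at 105323042 to 105346472 beside the chromosome 5 cluster, had 822 and 838 counts and a ratio of 0.950 (0.862 to 1.05). The pseudogene *Gbp2-ps* was close to silent, with 0 and 1 counts.

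The surroundings of the clusters were examined to see whether the lower Gbp ratios extended along the chromosomes. Within 1 Mb of the chromosome 3 cluster 4 other genes had at least 10 counts, and their ratios ran from 1.01 to 1.49. *Kyat3*, encoding a kynurenine aminotransferase, had 50 and 80 counts (ratio 1.49, 1.03 to 2.17), and the protein kinase gene *Pkn2* had 1322 and 1550 (1.09, 1.02 to 1.18). None of these 4 neighbours had an interval below 1, unlike 4 of the 5 Gbp genes between them. With 16.8% of all tested genes below 1, 4 neighbours are too few to show whether the lower ratios end at the cluster. Around the chromosome 5 cluster 13 genes had at least 10 counts, of which 3 were above 1, 3 below and 7 held 1. Over all tested genes 14.7% lay above 1 and 16.8% below. *Spp1*, encoding the secreted protein osteopontin, had 12969 and 9104 counts (0.654, 0.637 to 0.672), and *Nudt9*, an ADP-ribose hydrolase gene, 966 and 735 (0.709, 0.644 to 0.782). *Zfp326* was higher, with 520 and 682 counts (1.22, 1.09 to 1.37). The median log2 ratio of the neighbours was 0.11 on chromosome 3 and 0.01 on chromosome 5.

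**Figure D4:**
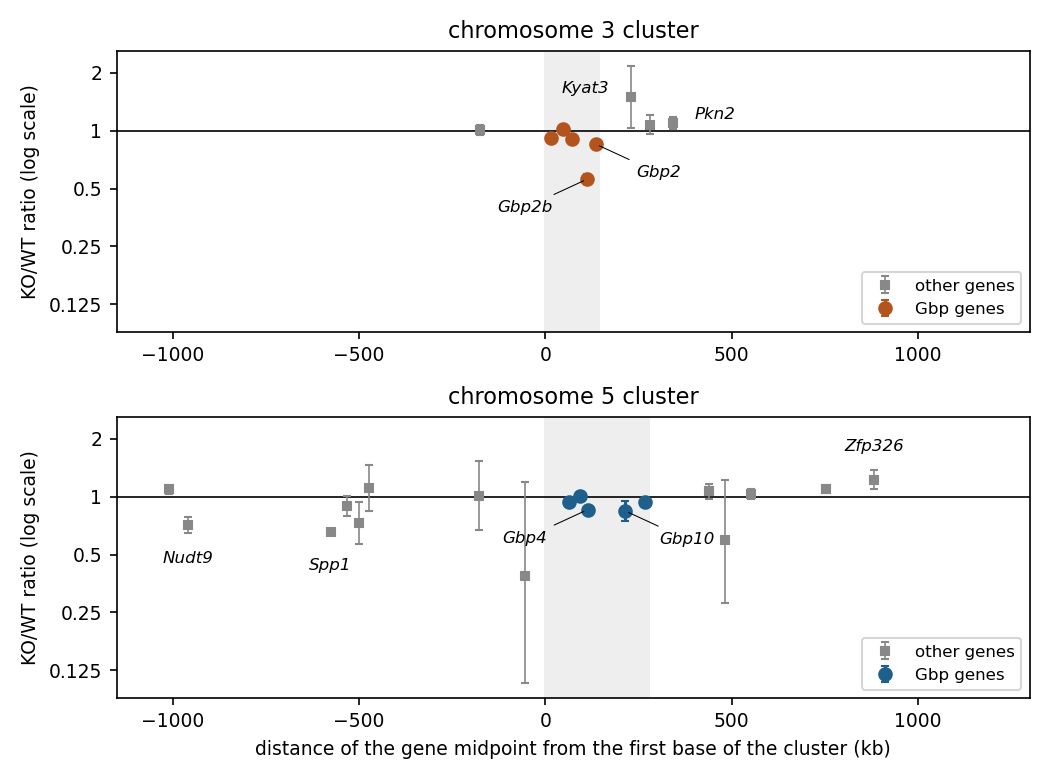
KO/WT ratio (log axis, 95% counting intervals as bars) of genes with at least 10 counts within 1 Mb of the chromosome 3 and chromosome 5 clusters, by distance in kb of the gene midpoint from the first base of the cluster, with Gbp genes as circles, other genes as squares and the cluster shaded. The 4 chromosome 3 neighbours (1.01 to 1.49) lie above the Gbp genes of that chromosome other than *Gbp7*, and the chromosome 5 neighbours lie on both sides of 1, with *Spp1* at a ratio of 0.654.

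The genes that act around the GBPs were examined by role, in 7 lists of 48 genes that were all above 10 counts. The interval lay above 1 for 9, below 1 for 15 and held 1 for 24, with a median log2 ratio of -0.01, the same as over all tested genes, and none beyond 2-fold. As percentages, 18.8% lay above and 31.3% below, beside 14.7% and 16.8% of all tested genes and 21.3% and 23.8% of those with at least 1000 counts. With total counts as the scaling, 15 lay above 1 and 12 below, so the list as a whole had no stable side. Among 9 genes of IFNγ and interferon signalling, 2 were above 1 and 4 below (median log2 ratio -0.08). *Ifngr1*, the ligand-binding chain of the IFNγ receptor, had 1111 and 1392 counts (ratio 1.17, 1.08 to 1.27), and *Stat2* 6985 and 8033 (1.07, 1.04 to 1.11). *Irf8*, a transcription factor of the macrophage lineage, had 15748 and 12268 counts (0.726, 0.709 to 0.744), and the receptor kinase gene *Jak2* 3681 and 3147 (0.797, 0.760 to 0.836). *Irf1*, named here after its value was seen because its product acts on the Gbp genes, had 20764 and 19284 counts (0.866, 0.849 to 0.883), close to the ratio of the summed Gbp genes.

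Among 7 inhibitors of this pathway, 1 was above 1 and 3 below (median log2 ratio 0.02). *Socs1*, which blocks the JAK kinases after IFNγ, had 9454 and 6461 counts (0.637, 0.617 to 0.658). *Socs3*, the inhibitor best known for signalling through gp130, had 3423 and 2545 (0.693, 0.658 to 0.730). Both were lower in FRβ KO by more than any Gbp gene except *Gbp2b*. *Irf2*, which competes with IRF1 for DNA, had 2399 and 2731 counts (1.06, 1.00 to 1.12).

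The immunity-related GTPases, which act with GBPs on pathogen vacuoles, had mostly lower ratios, as the Gbp genes had. Of 6 genes, 5 were below 1 and 0 above (4 and 1 with total counts), where 16.8% of all tested genes and 23.8% of those with at least 1000 counts lay below, with a median log2 ratio of -0.20 against -0.01 over all tested genes. *Iigp1* had 23552 and 18398 counts (0.728, 0.714 to 0.742), and *Tgtp2* 10016 and 8961 (0.834, 0.811 to 0.858). *Tgtp1* and *Tgtp2* are near-identical genes, so the split of reads between this pair is uncertain. None of the 6 passed 2-fold.

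In the 4 lists for machinery that loads or follows the GBPs, 0% to 33.3% of genes lay below 1 and 11.1% to 33.3% above. Over all tested genes these shares were 16.8% and 14.7%, and lists of 3 to 9 genes are too short to be set apart from them. Of 9 genes of the ATG8 conjugation system, which is needed to place GBPs on vacuoles, 1 was above 1 (*Atg5*, 1225 and 1575 counts, 1.20, 1.11 to 1.29) and 1 below (*Atg16l1*, 993 and 947, 0.889, 0.812 to 0.973), against 3 and 1 with total counts. Of 6 genes for prenylation of CaaX proteins, 2 were above 1 and 0 below under every scaling tried. *Pggt1b*, a subunit of the transferase that attaches geranylgeranyl, had 499 and 611 counts (1.14, 1.01 to 1.29), and *Icmt*, which methylates the new end, 1335 and 1544 (1.08, 1.00 to 1.16). Of 3 ubiquitin ligases known at GBP-coated vacuoles or bacteria, *Rnf213* had 23733 and 26284 counts (1.03, 1.01 to 1.05) and *Trim21* 791 and 716 (0.844, 0.762 to 0.935). Of 8 inflammasome genes downstream of GBPs, 2 were above 1 and 1 below (4 and 0 with total counts, 3 and 0 with the upper quartile or DESeq2 size factors). *Il1b*, encoding the cytokine IL-1β, had 751 and 1625 counts (2.02, 1.85 to 2.20), the highest ratio of the 48, and the DNA sensor gene *Aim2* 1398 and 1616 (1.08, 1.00 to 1.16). *Casp1*, encoding the protease that matures IL-1β, had 3846 and 3923 (0.951, 0.909 to 0.994), and its interval held 1 with each of the 3 other scalings.

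**Figure D5:**
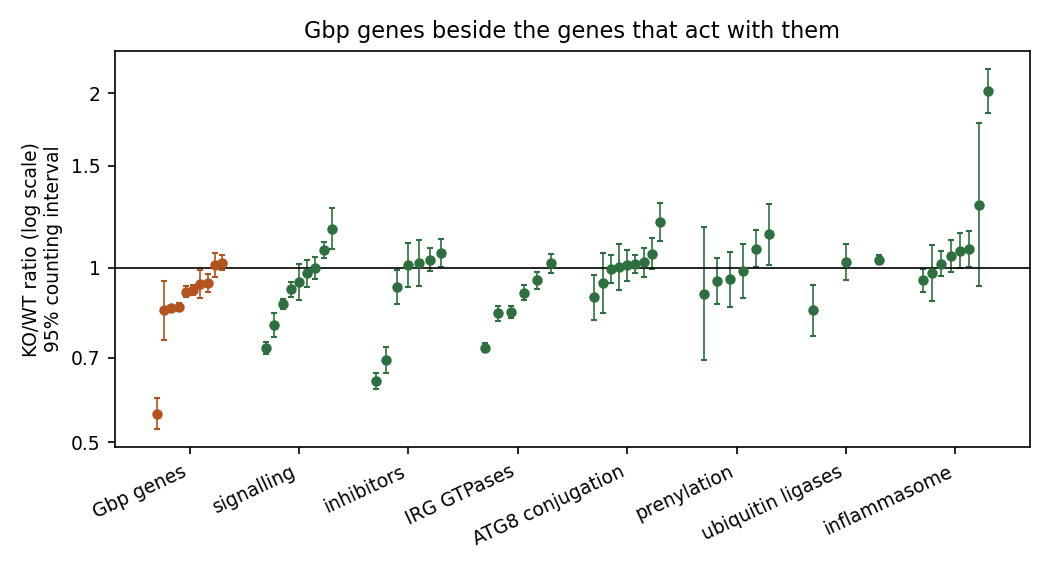
KO/WT ratio (log axis, 95% counting intervals as bars) of the 10 Gbp genes and of the 48 genes around them, grouped by role and sorted within each group, with 1 point per gene. The Gbp genes and the immunity-related GTPases (IRG) lie mostly below 1, and *Il1b* (2.02) and *Gbp2b* (0.560) lie farthest out.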

How the data were processed

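Total RNA of M1-like BMDMs was sequenced by the authors as 150 bp paired-end reads, with 3 mice pooled per genotype. The authors deposited raw read counts per gene, made by their provider after trimming of adapters, removal of low-quality reads and HISAT2 alignment to mm10. For the counting program, annotation release and strand setting, the sources used here give nothing, and the FA_N of the sample names is unexplained. Of the gene identifiers, 37 had no entry in GENCODE M21.

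TMM factors from edgeR 4.0.16 under R 4.3.3 scaled the counts. Exact 95% intervals of the KO/WT ratios followed Clopper and Pearson (scipy 1.17.1 in Python 3.11.15), and the cluster comparison is a conditional odds ratio with its exact interval. Only the interval of single ratios was tried on simulated counts, which carried counting error alone, the error that the interval assumes. That trial therefore says nothing about variation between mice or libraries. The scaling and the cluster comparison were not tried in this way. Log2 ratios carry a prior count of 2. The threshold for background shares was 10 counts over both libraries, and that of 1000 was added after seeing the data. Copies were searched with blastn 2.17.0 and coding sequences aligned with mafft 7.526.

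The members and gene lists were chosen with earlier results of these data known. The text names all 10 members, other annotated Gbp loci, up to 2 genes per direction of each list and up to 3 neighbours per cluster by the interval bound farthest from 1. Genes named outside this rule are the marker genes given with the libraries and those said to be chosen after their values were seen. Some genes of the lists are not reported here by name. Alternatives were DESeq2 1.42.0 size factors, the upper quartile and total counts as scaling, another 2 filters and 2 prior counts, the point ratio, a 99% interval, a limit of 1.5-fold, leaving out each member, medians in place of sums, summed copies and transcript length.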

Additional observations from a re-analysis of the deposited data

How the results depend on the processing

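No paired analysis was possible because each genotype has 1 library. The scaling moved values by a few percent: the chromosome 3 sum was 0.886 with total counts, 0.871 with the upper quartile and 0.872 with DESeq2 size factors, and the chromosome 5 sum was 0.906 with total counts. No member's point ratio crossed 1 under these scalings. Members with an interval below 1 numbered 8 with TMM and the upper quartile, 7 with DESeq2 size factors (without *Gbp6*) and 6 with total counts (without *Gbp6* and *Gbp8*). Members above 1 numbered 1 with total counts and 1 with DESeq2 size factors (*Gbp7* in both), and 2 by the point ratio. With a limit of 1.5-fold, 1 member (*Gbp2b*) was lower beyond it.

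The chromosome 3 sum was 0.857 without *Gbp7*, 0.913 without *Gbp2* and 0.909 as a median, and the chromosome 5 sum 0.955 without *Gbp4* and 0.937 as a median. The comparison of chromosome 5 with chromosome 3 reversed to 0.968 without *Gbp2* and was 1.11 without *Gbp4*. By the longest transcript, 8 genes in WT and 6 in FRβ KO kept their place in the order of levels. With copies at 95% identity summed, *Gbp9* moved below 1 (0.870). *Gbp6* and *Gbp8* moved to 0.875 and *Gbp4* to 0.885, each outside its own interval, while *Gbp10* (0.875) stayed inside. Each of these sums holds the counts of *Gbp4*. Counting depth limits *Gbp10* most, and 1 pooled library per genotype gives no measure of the variation between mice, and whether differences of this size would recur was not tested.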
